A study of Homo sapiens with 6 samples.

Results

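The 10 genes described here encode enzymes that finish collagen after its chains are made: the lysyl oxidases LOX, LOXL1, LOXL2, LOXL3 and LOXL4, the lysyl hydroxylases PLOD1, PLOD2 and PLOD3, and the prolyl 4-hydroxylase alpha subunits P4HA1 and P4HA2. They were chosen by gene symbol, and all 10 were found among the 60612 genes of the deposited tables. RNA was sequenced from HSC-3, a cell line from a human squamous carcinoma of the mouth, in 3 libraries overexpressing IRF9 and 3 control libraries. IRF9 is the DNA-binding subunit of the interferon-activated factor ISGF3. The control libraries are titled kongbai, and the series title calls the group compared with IRF9 overexpression WT. The sources used here do not say how IRF9 was overexpressed, whether the cells are a clone, or whether the controls received a vector. They also do not tie the replicates to separate cultures, so the p-values below rest on a spread among libraries that may be technical only.

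Fibrillar collagen is modified in several steps. In the endoplasmic reticulum, prolyl 4-hydroxylases hydroxylate proline, which stabilises the triple helix, and lysyl hydroxylases hydroxylate lysine, which sets the kind of cross-link that can form later. Both are oxygenases that need iron, 2-oxoglutarate and ascorbate. Outside the cell, the copper-dependent lysyl oxidases oxidise lysine and hydroxylysine side chains, and the products join into the cross-links of collagen and, for LOX and LOXL1, elastin. Genes known to be induced by low oxygen through hypoxia-inducible factors (HIFs) include LOX, LOXL2, PLOD1, PLOD2, P4HA1 and P4HA2. These were named with earlier results of these data known, and no statement on such induction is made for the other enzymes. They are the same 6 genes that were called lower below, so their naming is no independent evidence of a direction. LOX, LOXL2 and PLOD2 are known for matrix stiffening in carcinomas.

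The libraries held 61645349 to 85156099 counts, of which mitochondrial genes took 5.79% to 6.29%. IRF9 was at 435, 422.9 and 119.7 CPM (counts relative to the TMM-scaled library size) with IRF9 overexpressed and at 27.6, 25.1 and 44.6 CPM in the controls. Overexpressing replicate 3 therefore had the lowest IRF9 level of its group. A relation of the enzyme levels to the IRF9 level was not tested. Over the 6 libraries, 19034 genes could be tested with edgeR's quasi-likelihood test, and a gene was called changed at a Benjamini-Hochberg adjusted p under 0.05.

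Of the 10 enzymes, 8 were called changed, 6 lower and 2 higher in IRF9-overexpressing cells. LOX fell to 43.7% and PLOD2 to 46.3% of their control level, LOXL2 to 57.1% and P4HA1 to 58.6%, and PLOD1 and P4HA2 fell less. LOXL1 and LOXL3 were called higher, but from control means of 0.83 and 0.74 CPM, and PLOD3 and LOXL4 were not called. Among all genes tested 37.4% were called, 18.2% lower and 19.2% higher, and scaling by library size alone made that split 4742 higher and 2614 lower against 3648 and 3473 by TMM. Genes with a mean of at least 10 CPM, a level that 8 of the 10 enzymes reach, were called in 51.8% of cases and lower in 26.9%. The median log2 fold change over the 10 enzymes was -0.45, and over all genes tested it was 0.0046. At least 2-fold changes were called for 4 of the enzymes, LOX, PLOD2, LOXL1 and LOXL3, and for 5.73% of all genes. In these bulk libraries, fewer cells that express a gene and less of its RNA per cell cannot be told apart.

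**Figure D1:**
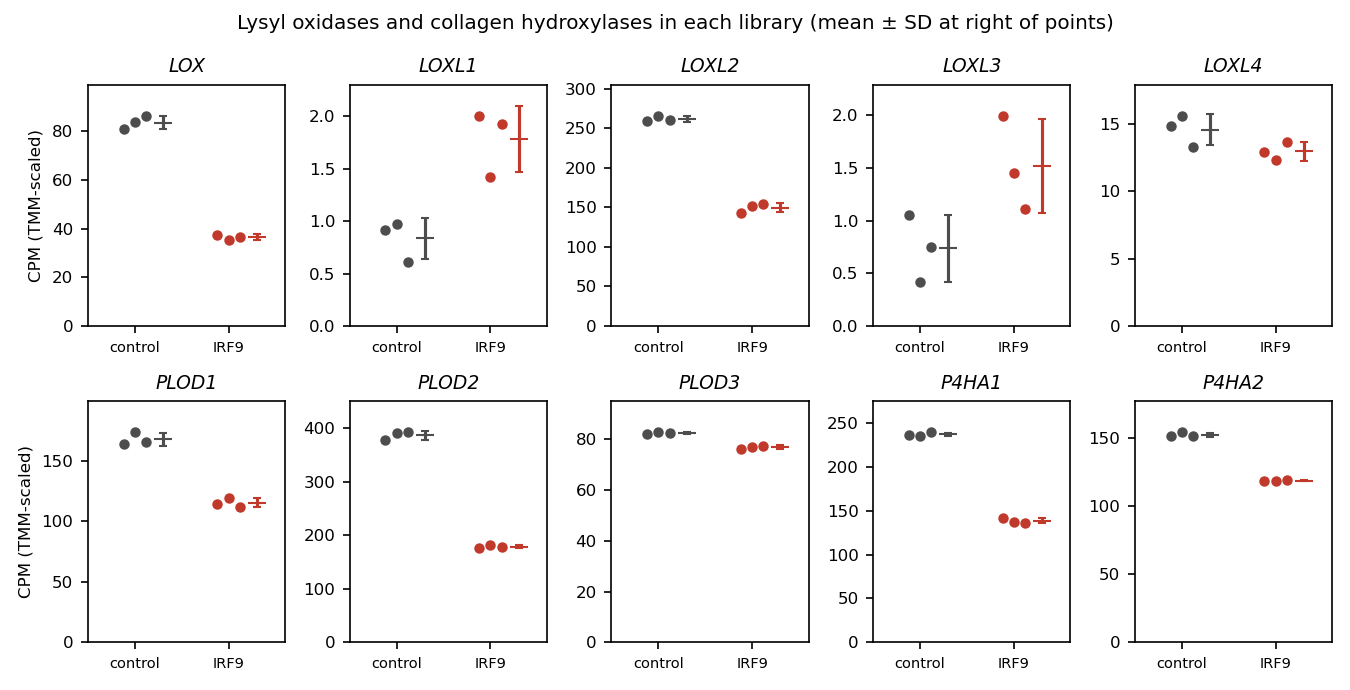
Level of each enzyme gene in CPM (TMM-scaled, linear axis from 0) in the 3 control and the 3 IRF9-overexpressing libraries, with points for libraries and the mean ± SD to their right. The groups lie apart for every gene except LOXL4, and the scale shows that LOXL1 and LOXL3 stay between 0.41 and 2.0 CPM.

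For 4 of these genes, the stretch before an annotated RefSeq start is shown because HIFs bind DNA at a core of ACGTG or GCGTG. These 4 are examples picked by no stated rule, and match counts for the other genes with a window follow. RefSeq windows (GRCh38.p14) were found for 9 of the 10 genes, 12 windows in all since LOX has 3 and LOXL3 has 2; LOXL2 was not matched. Each is the 250 bases before the annotated start, 5′ to 3′ on the gene's strand, with every match to the core on either strand in capitals. LOX is at chr5:122078260-122078509 (minus strand, the outermost of its starts), PLOD2 at chr3:146161185-146161434 (minus), P4HA1 at chr10:73096867-73097116 (minus) and PLOD3 at chr7:101217582-101217831 (minus).
LOX: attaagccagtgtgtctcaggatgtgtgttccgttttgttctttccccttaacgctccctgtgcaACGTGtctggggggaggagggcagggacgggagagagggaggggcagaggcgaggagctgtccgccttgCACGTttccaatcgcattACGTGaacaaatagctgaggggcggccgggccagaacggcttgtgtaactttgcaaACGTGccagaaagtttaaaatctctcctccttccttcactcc
PLOD2: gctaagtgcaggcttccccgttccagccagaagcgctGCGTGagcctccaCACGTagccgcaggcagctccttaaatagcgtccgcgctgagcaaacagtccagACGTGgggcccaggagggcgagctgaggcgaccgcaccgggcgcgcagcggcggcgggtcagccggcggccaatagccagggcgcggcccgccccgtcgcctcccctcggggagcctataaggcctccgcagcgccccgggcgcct
P4HA1: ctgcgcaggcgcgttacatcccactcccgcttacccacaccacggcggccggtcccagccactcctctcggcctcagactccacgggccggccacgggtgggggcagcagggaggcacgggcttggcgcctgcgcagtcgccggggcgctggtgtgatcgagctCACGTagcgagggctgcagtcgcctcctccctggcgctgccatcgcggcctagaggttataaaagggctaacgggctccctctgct
PLOD3: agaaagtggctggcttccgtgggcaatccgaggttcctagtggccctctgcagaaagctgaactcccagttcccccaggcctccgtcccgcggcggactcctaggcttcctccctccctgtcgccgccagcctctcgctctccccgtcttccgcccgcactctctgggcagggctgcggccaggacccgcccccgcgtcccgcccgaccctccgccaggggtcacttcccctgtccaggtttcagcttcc
The LOX window shown holds 4 matches, all ACGTG, with first bases 185, 116, 98 and 42 bases before the start. The other windows of LOX, at starts further downstream, overlap each other and hold the same 2 matches, 1 ACGTG and 1 GCGTG. The PLOD2 window holds 3 matches and the P4HA1 window 1, while the PLOD3 window holds 0. PLOD1 has 2 matches, both GCGTG, and the windows of P4HA2, LOXL1 and LOXL4 hold 0. LOXL3 has 1 match in the second of its windows and 0 in the other. Of 35116 windows of this length in the table, 43.2% hold at least 1 match to either core, so a match is common. The core of the interferon-stimulated response element, searched as GAAA, any 2 bases (NN) and GAAA again, occurs on either strand in 0 of the 12 windows and in 3.02% of all windows. By the deposited coordinates, only the window of LOXL4 lies wholly before its gene. The LOX window shown and that of P4HA1 lie partly within their genes. All other windows, those of PLOD2 and PLOD3 included, lie within their genes, and P4HA2 extends far upstream of its window. Most windows, the PLOD3 one with 0 matches included, are therefore not upstream of the deposited gene. Matches and their absence describe these letters only, not the binding of a factor.

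LOX, the founding lysyl oxidase (ENSG00000113083, chromosome 5, 122063195 to 122078360, minus strand, GRCh38 as in the deposited table), had 37.5, 35.4 and 36.7 CPM with IRF9 overexpressed and 80.7, 83.6 and 86.25 CPM in the controls. Every overexpressing library was below every control, and the spread within each group was small against the gap. The log2 fold change was -1.19 (SE 0.049, adjusted p 3.21e-09, edgeR), which left 43.7% of the control level. It was lower than the log2 fold changes of all but 2.65% of tested genes. SRFBP1 on the opposite strand runs across much of the span of LOX, and it shares 138 of the 5547 exon bases of LOX in GENCODE release 29. With the counts of both genes summed, the log2 fold change was -0.86 and was still called.

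LOXL2, a lysyl oxidase that acts on basement membrane collagen IV, was the most abundant of the family (ENSG00000134013, chromosome 8, 23296897 to 23425328, minus strand). Its levels were 142.7, 152.1 and 153.7 CPM in the overexpressing libraries and 259.2, 265.5 and 260.7 CPM in the controls. The groups were far apart, and the log2 fold change was -0.81 (SE 0.039, adjusted p 1.52e-08, edgeR). ENTPD4, on the same strand, shares 120 of the 5707 exon bases of LOXL2 and drew 30.8% as many counts. Its own log2 fold change was -0.14 and was not called (adjusted p 0.0635, edgeR). Under the alternatives, summing with overlapping genes included, the value of LOXL2 stayed within -0.83 to -0.65. LOXL4 (ENSG00000138131, chromosome 10, 98247690 to 98268194, minus strand) had 12.9, 12.3 and 13.7 CPM against 14.9, 15.6 and 13.3 CPM. Here the groups overlapped, since the lowest control lay below the highest overexpressing library. Its log2 fold change of -0.17 (SE 0.087) did not pass (adjusted p 0.14, edgeR), and the 95% interval ran from -0.36 to 0.016. A fall as large as that of LOX or LOXL2 lies outside this interval.

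LOXL1, which is known in mice for elastic fibre upkeep, went the other way at a low level (ENSG00000129038, chromosome 15, 73925989 to 73952137, plus strand). It had 174, 101 and 156 counts with IRF9 overexpressed and 69, 71 and 37 counts in the controls, or 2.00, 1.42 and 1.93 CPM against 0.917, 0.976 and 0.612 CPM. All 3 overexpressing libraries were higher, with a log2 fold change of 1.09 (SE 0.28, adjusted p 0.00802, edgeR). The antisense gene LOXL1-AS1 overlaps 335 of its 3637 exon bases and drew 330% of its counts, and since the use of strand in counting is not given, reads of the 2 genes may not be told apart. Their summed counts had a log2 fold change of 0.29 and were not called (adjusted p 0.0764). The length that its count and its FPKM imply ran from 1746 to 2827 bases among the libraries, where that of LOX ran from 5380 to 5564. On log2(FPKM + 1) the log2 fold change of LOXL1 was 0.31, still called.

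LOXL3 (ENSG00000115318, chromosome 2, 74532258 to 74555690, minus strand) had 173, 103 and 90 counts against 79, 30 and 45 counts, or 1.99, 1.45 and 1.11 CPM against 1.05, 0.412 and 0.744 CPM. The groups did not overlap, but the lowest overexpressing library and the highest control almost met. Its log2 fold change was 1.05 (SE 0.36, adjusted p 0.0361, edgeR). The call was lost without overexpressing replicate 1 (0.78, adjusted p 0.141) or 2 (1.08, adjusted p 0.0569) and without control replicate 2 (0.745, adjusted p 0.154) or 3 (1.055, adjusted p 0.0852). It was also lost without a filter on low counts (adjusted p 0.0834) and on log2(FPKM + 1), where the value was 0.27 (adjusted p 0.0642). DOK1 and HTRA2, on the opposite strand, share 216 and 625 of its 4363 exon bases. DOK1 had 3.41, 3.27 and 2.64 CPM in the overexpressing libraries against 1.12, 1.39 and 1.06 CPM, a log2 fold change of 1.38 (adjusted p 0.000359, edgeR). HTRA2 had a log2 fold change of 0.34 (adjusted p 0.00444, edgeR). HTRA2 drew 2082% and DOK1 190.6% of the counts of LOXL3. With all overlapping genes summed, the log2 fold change was 0.45 and was called (adjusted p 0.00095, edgeR). That sum consists mostly of HTRA2 counts, so its call cannot speak for LOXL3 itself.

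PLOD2, the lysyl hydroxylase that acts on collagen telopeptides and so favours stable hydroxylysine cross-links, was the most abundant of the 10 genes per length in the controls (ENSG00000152952, chromosome 3, 146069440 to 146163653, minus strand). It had 175.7, 182.6 and 178.8 CPM in the overexpressing libraries and 377.6, 390.9 and 392.1 CPM in the controls. No overexpressing library came near a control. The log2 fold change was -1.11 (SE 0.035, adjusted p 3.39e-10, edgeR), a fall to 46.3% of the control level. PLOD2 makes 2 main splice forms that differ in activity, and counts per gene do not tell them apart.

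PLOD1 hydroxylates lysines within the triple helix (ENSG00000083444, chromosome 1, 11934205 to 11975538, plus strand). Its levels were 114.5, 119.7 and 112.2 CPM against 163.8, 173.4 and 165.7 CPM, again with no overlap. The log2 fold change was -0.54 (SE 0.042, adjusted p 1.03e-06, edgeR). PLOD3 (ENSG00000106397, chromosome 7, 101205977 to 101218420, minus strand), which also adds glucose to hydroxylysine-linked galactose, had 76.0, 77.2 and 77.4 CPM against 82.2, 82.7 and 82.6 CPM. The overexpressing libraries lay just below the controls, and the log2 fold change of -0.10 (SE 0.041) missed the threshold (unadjusted p 0.0274, adjusted p 0.0678, edgeR). Its 95% interval, not corrected for the number of genes, ran from -0.19 to -0.013. PLOD3 shares 429 of 5671 exon bases with ZNHIT1 on the opposite strand, and summed with it the value was -0.12 and was called (adjusted p 0.0224). ZNHIT1 drew 68.7% as many counts as PLOD3 and itself had a log2 fold change of -0.15 (adjusted p 0.046, edgeR). The summed call therefore cannot speak for PLOD3 alone.

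P4HA1 and P4HA2 are catalytic subunits that each form a tetramer with the beta subunit, protein disulfide isomerase. P4HA1 (ENSG00000122884, chromosome 10, 73007217 to 73096974, minus strand) had 142.1, 137.6 and 136.1 CPM in the overexpressing libraries and 236.2, 234.9 and 238.9 CPM in the controls. The controls were tightly grouped well above the other libraries. The log2 fold change was -0.77 (SE 0.036, adjusted p 1.09e-08, edgeR). P4HA2 (ENSG00000072682, chromosome 5, 132191838 to 132295315, minus strand) had 118.3, 118.8 and 119.4 CPM against 151.4, 154.1 and 151.4 CPM. The gap was narrower than for P4HA1 but still wide against the spread, with a log2 fold change of -0.36 (SE 0.036, adjusted p 1.04e-05, edgeR). PDLIM4 and SLC22A4 overlap the span of P4HA2 on the opposite strand and share 0 of its exon bases. Summing all overlapping genes with P4HA2 gave a log2 fold change of -0.19, still called.

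**Figure D2:**
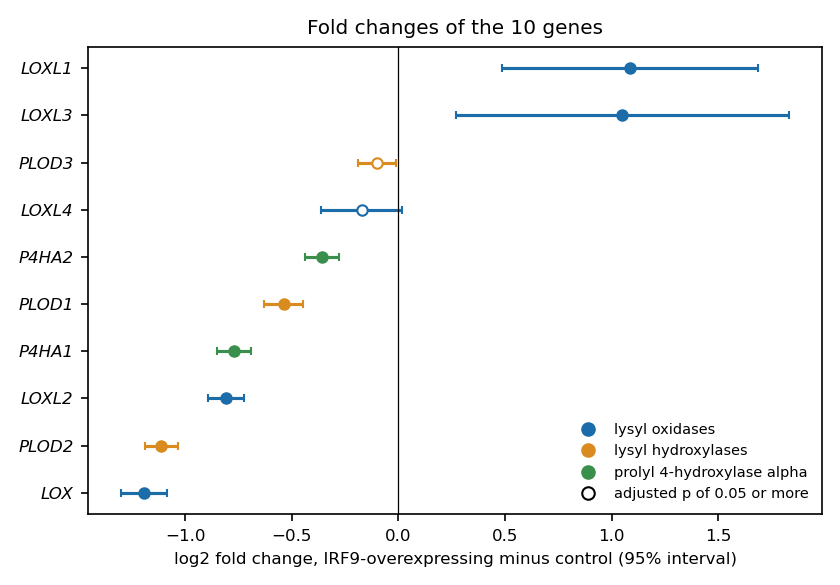
Log2 fold change of each gene, IRF9-overexpressing minus control, with its 95% interval from edgeR's quasi-likelihood test, coloured by enzyme family, with open circles for genes that were not called. From LOX at -1.19 to P4HA2 at -0.36 the intervals lie left of 0, that of PLOD3 ends just short of 0, that of LOXL4 spans it, and the wide intervals of LOXL1 and LOXL3 lie right of it.

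Across the 10 genes, the CPM groups did not overlap for 9, LOXL4 being the exception, beside 48.6% of all tested genes and 61.2% of those with a mean of at least 10 CPM. A comparison of levels between genes needs values per length, for which the deposited FPKM (fragments scaled to gene length and depth) were used. In the controls the order was PLOD2 at 88.2 ± 2.61 FPKM (mean ± SD, n = 3), P4HA1 at 70.3 ± 1.38, LOXL2 at 60.6 ± 0.835, P4HA2 at 48.7 ± 0.698 and PLOD1 at 47.3 ± 1.21 FPKM. PLOD3 followed at 26.2 ± 0.0134, LOX at 14.9 ± 0.464, LOXL4 at 3.37 ± 0.241, LOXL1 at 0.361 ± 0.0559 and LOXL3 at 0.176 ± 0.0712 FPKM. In that order only P4HA2 and PLOD1 overlapped with their neighbour. In the overexpressing libraries P4HA1 (43.1 ± 0.904 FPKM) and PLOD2 (42.7 ± 1.28 FPKM) overlapped at the top, as did LOXL2 (36.0 ± 1.67 FPKM) with PLOD1 (34.1 ± 1.40 FPKM). The remaining order from PLOD3 down was as in the controls, with LOXL1 and LOXL3 overlapping at its end.

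The family totals per length were lower in the overexpressing libraries. The summed FPKM of the lysyl oxidases was 45.7, 47.6 and 48.3 against 78.0, 80.2 and 80.0, that of the lysyl hydroxylases 99.3, 105.5 and 100.8 against 157.6, 163.4 and 164.1, and that of the prolyl 4-hydroxylase alpha subunits 82.1, 82.2 and 81.4 against 117.8, 118.7 and 120.5. These are 59.4%, 63.0% and 68.8% of the control means, given as a description with no test. LOXL2 made up 76.4% ± 1.57 of the lysyl oxidase sum in the overexpressing libraries, beside 76.4% ± 0.233 in the controls (SD, n = 3). The share of LOX was 14.6% ± 0.755 against 18.7% ± 0.310, and that of LOXL4 was 6.64% ± 0.312 against 4.25% ± 0.315. Among lysyl hydroxylases the share of PLOD2 was 41.9% ± 0.220 against 54.5% ± 0.510, while PLOD3 had 24.7% ± 0.378 against 16.2% ± 0.362. P4HA1 had 52.6% ± 0.815 of the alpha subunit sum against 59.1% ± 0.656.

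**Figure D3:**
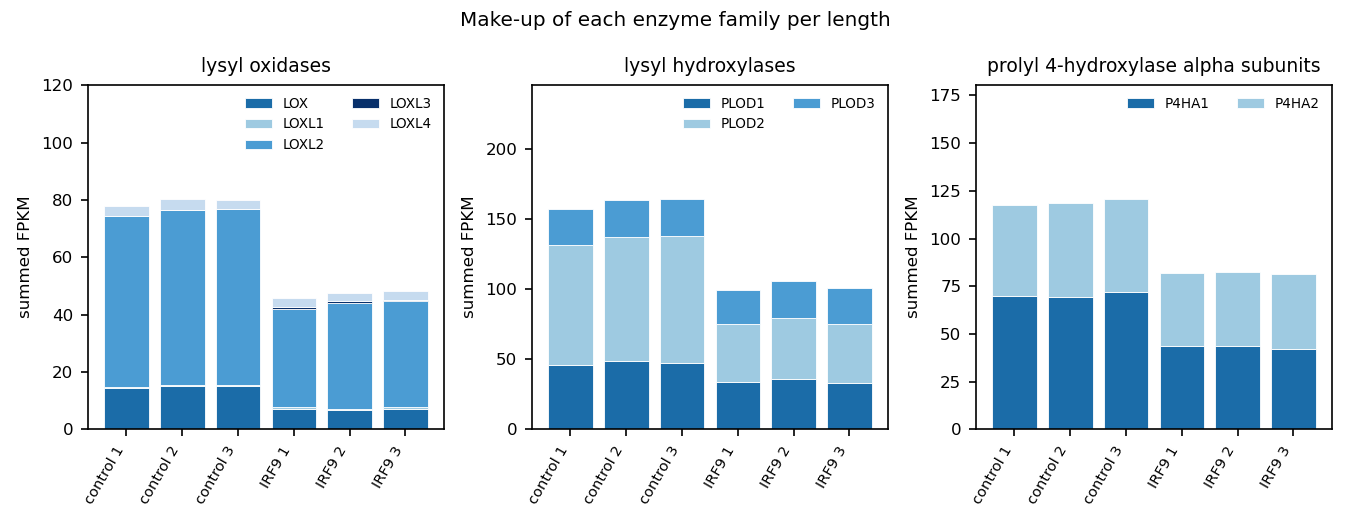
Summed FPKM of the 3 enzyme families in each library, as stacked bars from 0 whose parts are the member genes. The overexpressing libraries have lower bars in all 3 families, LOXL2 fills most of the lysyl oxidase bar throughout, and the PLOD2 part shrinks from 54.5% to 41.9% of the lysyl hydroxylase bar.

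The genes whose pattern over the 6 libraries lay nearest to that of LOX were HMGCS1, a sterol synthesis enzyme, OAS1, an interferon-stimulated sensor of double-stranded RNA, and GPNMB, a membrane glycoprotein. Likeness was the Euclidean distance between log2 CPM values centred on the control mean, over 11368 genes with a mean of at least 5 CPM. The distances were 0.122, 0.124 and 0.126, and PLOD2 lay at 0.176 from LOX. The genes nearest to P4HA1 were ITM2B (0.034), the pyruvate kinase PKM (0.063) and the water and glycerol channel AQP3 (0.073), and LOXL2 lay at 0.148. With 2 groups, such a distance mostly compares the sizes of the group differences.

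The partners of the hydroxylases in the endoplasmic reticulum went both ways. Of 17 tested genes for other collagen-modifying and folding proteins, 7 fell and 4 rose, and by library size alone 6 fell and 8 rose. Their median log2 fold change was 0.05, and 64.7% were called, beside 37.4% of all genes tested and 51.8% with a mean of at least 10 CPM. P4HB, the beta subunit that P4HA1 and P4HA2 need, had 690.8 ± 22.5 against 962.4 ± 9.66 CPM (mean ± SD, n = 3), a log2 fold change of -0.48 (adjusted p 3.27e-07, edgeR). SERPINH1, the collagen chaperone HSP47, had 191.7 ± 13.0 against 266.1 ± 2.15 CPM (-0.47), and the thiol isomerase PDIA3 a log2 fold change of -0.23. P3H4, a partner of lysyl hydroxylase 1 in mice, had 20.1 ± 1.57 against 12.1 ± 0.508 CPM (log2 fold change 0.73). TMEM38B, an ion channel of the endoplasmic reticulum, rose by 0.43 and P3H2, a prolyl 3-hydroxylase, by 0.16 on the log2 scale. The call of P3H2 was lost without overexpressing replicate 2 (0.13) and without control replicate 1 (0.15), 2 (0.17) or 3 (0.17).

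Genes of procollagen export and propeptide cleavage held 5 higher and 2 lower of 15 tested, with a median log2 fold change of 0.087. The share called was 46.7%, beside 37.4% of all genes tested and 51.8% of those with a mean of at least 10 CPM. BMP1, the proteinase that cleaves procollagen and also activates the LOX precursor, had 61.2 ± 1.64 against 83.5 ± 4.31 CPM, a log2 fold change of -0.45 (adjusted p 2.4e-05, edgeR). TFG, a factor at exit sites of the endoplasmic reticulum, fell by 0.18 on the log2 scale, a call lost on log2(FPKM + 1) (-0.16, adjusted p 0.109, limma) and on log2(FPKM + 0.1) (adjusted p 0.102). MIA3, which loads procollagen into carriers, had 81.1 ± 4.30 against 62.1 ± 3.36 CPM (0.39). PCOLCE2, an enhancer of procollagen cleavage, rose by 0.78 at 5.27 ± 0.799 against 3.04 ± 0.219 CPM. The procollagen proteinase ADAMTS14 had a log2 fold change of 2.78, from 2, 11 and 8 counts in the controls to 63, 58 and 47. On log2(FPKM + 1), a scale that compresses such low levels, its value was 0.13 and was not called (adjusted p 0.051, limma).

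Among the substrates, 9 of 28 tested collagen and elastic fibre genes were higher and 7 lower, with a median log2 fold change of -0.034. The share called was 57.1%, beside 37.4% of all genes tested and 51.8% of those with a mean of at least 10 CPM. COL5A1, a chain of the collagen that starts fibrils, had 229.5 ± 15.2 against 460.9 ± 2.76 CPM, a log2 fold change of -1.01 (adjusted p 7.3e-09, edgeR). SPARC, a collagen-binding glycoprotein, had 345 ± 2.42 against 518.2 ± 6.53 CPM (-0.59), and COL7A1, the anchoring fibril collagen, 190.4 ± 4.36 against 299.6 ± 3.67 CPM (-0.65). LTBP4 (0.64), MFAP2 (1.23) and EFEMP2 (0.73), all proteins of elastic fibres, rose, MFAP2 at 3.38 ± 0.332 against 1.45 ± 0.257 CPM. Not every elastic fibre gene did so, and those that follow were named after their values were seen. FBLN1 (0.09), FBLN5 (-0.19), FBN1 (0.24), FBN2 (-0.05) and LTBP1 (-0.06) were not called. The elastin gene ELN had 0 to 10 counts per library and, like MFAP5, was not tested. EFEMP2, or fibulin-4, is known to bind LOX, and it had 6.52 ± 0.10 against 3.95 ± 0.205 CPM. COL11A1 and POSTN had 0 counts in all libraries.

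Of 9 tested genes that supply copper or ascorbate, 3 fell and 1 rose, with a median log2 fold change of -0.085. The share called was 44.4%, beside 37.4% of all genes tested and 51.8% of those with a mean of at least 10 CPM. ATP7A, the pump that brings copper to secreted enzymes such as LOX, had 13.7 ± 1.34 against 17.7 ± 1.20 CPM, a log2 fold change of -0.38 (adjusted p 0.00558, edgeR). The copper transporter SLC31A2 fell by 0.35 and CCS, a copper chaperone, by 0.30. On log2(FPKM + 1) the value of ATP7A was -0.20 and was not called (adjusted p 0.144, limma), nor was it by glmTreat against 0.25 (adjusted p 0.13). ATOX1, which hands copper to ATP7A, rose by 0.33 on the log2 scale. The ascorbate transporter SLC23A1 had 0 counts in all libraries.

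The hydroxylases belong to a wider class of 2-oxoglutarate oxygenases, of which 20 others were tested. In this list 9 fell and 3 rose, and by library size alone 9 fell and 5 rose. Its median log2 fold change was -0.16. Of these 20 genes 12 were called, beside 37.4% of all genes tested and 51.8% of those averaging 10 CPM or more. EGLN3 and EGLN1, the prolyl hydroxylases that mark HIF subunits for degradation, had log2 fold changes of -1.66 (adjusted p 8.26e-11, edgeR) and -0.98 (adjusted p 7.98e-09). KDM4B, a histone demethylase, had one of -0.80. The 3 that rose were FTO (0.21), PHYH (0.36) and KDM6B (0.17). The call of KDM6B was lost without overexpressing replicate 2 (0.12) or 3 (0.15) and without any single control, where the values ran from 0.14 to 0.18. That of PHYH was lost without overexpressing replicate 3 (0.345) and control replicate 1 (0.30) or 3 (0.29), and that of FTO without control replicate 3 (0.16). On log2(FPKM + 1) neither FTO (adjusted p 0.15, limma) nor KDM6B (adjusted p 0.0717) was called.

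Other genes that low oxygen induces were lower in most cases: 20 of 26 fell and 2 rose, with a median log2 fold change of -0.57. The share called was 84.6%, beside 37.4% of all genes tested and 51.8% of those with a mean of at least 10 CPM. Hypoxia genes were already known to be lower in these libraries when this list was drawn up, so it is no independent evidence of a direction. SLC2A1, a glucose transporter, and LDHA, lactate dehydrogenase A, had log2 fold changes of -1.47 and -1.12, and NDRG1 one of -0.96. VEGFA, the angiogenic growth factor, rose by 0.38 and STC2, a secreted glycoprotein, by 0.74 on the log2 scale.

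Factors reported to act on lysyl oxidase transcription held 6 higher and 7 lower of 21, with a median log2 fold change of -0.022. The share called was 61.9%, beside 37.4% of all genes tested and 51.8% of those with a mean of at least 10 CPM. HIF1A, named after its values were seen, had 1383, 1452 and 1387 CPM against 1354, 1419 and 1450 CPM, and the groups overlapped (log2 fold change 0.00, adjusted p 1.00, edgeR). EPAS1, which encodes HIF-2 alpha, had 286.1 ± 14.1 against 403.5 ± 4.59 CPM, a log2 fold change of -0.50 (adjusted p 1.34e-06, edgeR). The transcription factor SNAI2 fell by 0.59 and the TGF-beta receptor TGFBR2 by 0.35 on the log2 scale. WWTR1, the YAP partner TAZ, rose by 0.37, SMAD3, which carries TGF-beta signals, by 0.35, and TWIST1 by 0.80, the last at 12.4 ± 1.08 against 7.07 ± 1.19 CPM.

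**Figure D4:**
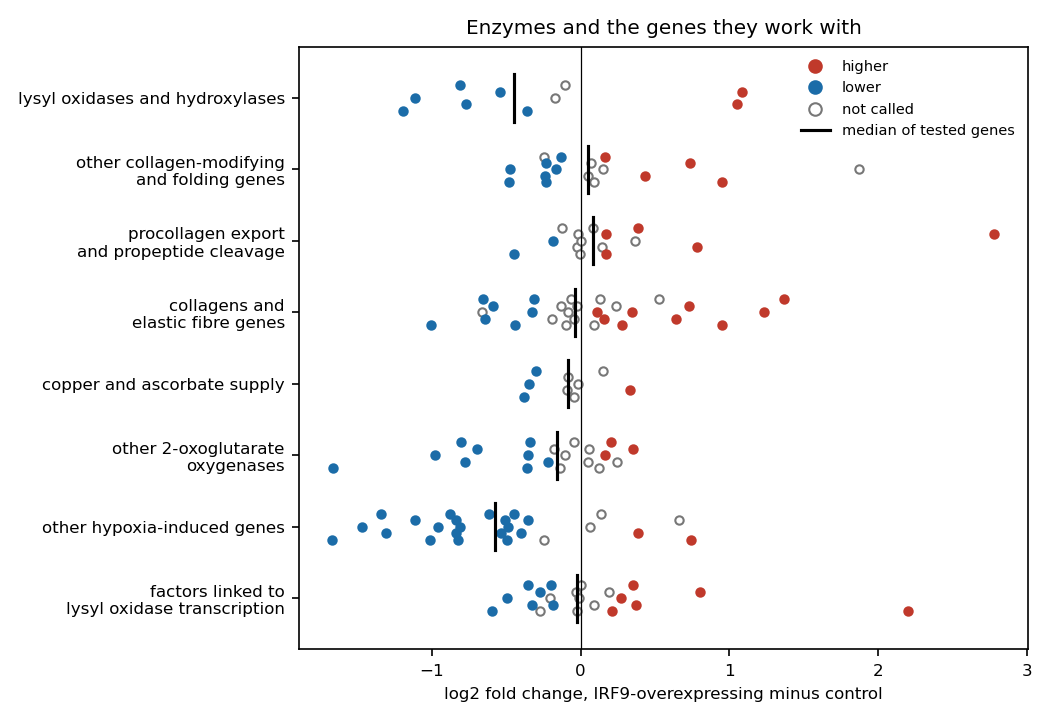
Log2 fold change, IRF9-overexpressing minus control, of every tested gene in the enzyme set and in 7 lists of genes around it, with points coloured by call (edgeR, adjusted p under 0.05) and a bar at each list's median. The enzymes (median -0.45) and the other hypoxia-induced genes (median -0.57) lie mostly left of 0, while the collagen, folding and export lists spread to both sides.

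Lysyl oxidases and collagens are typical of fibroblasts, so markers of other cell types were read beside them. Of 10 fibroblast markers, 6 were tested, with 2 lower and 1 higher, and their summed level was 48.1 to 52.5 CPM in the overexpressing libraries and 76.6 to 81.2 CPM in the controls. LUM, named after its values were seen, made up most of that gap, with 11.3 ± 0.680 against 38.9 ± 1.22 CPM. THY1 had 0 counts in all libraries, and COL3A1 had 8 counts in control replicate 3 and 0 in the others. Squamous markers were abundant and also lower, with 6 of 10 falling, 2 rising and summed levels of 15260 to 15860 against 23060 to 23780 CPM. Endothelial markers summed to 16.6 to 17.4 against 11.2 to 13.7 CPM, with KDR and CLDN5 at 0, and leukocyte markers to 101.8 to 108.9 against 108 to 109.3 CPM. Of 5 endothelial markers tested 2 were higher, and of 4 leukocyte markers 1 was higher and 1 lower. Called in either direction were 8 of 10 squamous, 3 of 6 fibroblast, 2 of 5 endothelial and 2 of 4 leukocyte markers. The share called was 37.4% for all genes tested and 51.8% for those averaging 10 CPM or more. Whether any marker list differs from these shares was not tested. The part of the marker differences in the results for the enzymes was not tested either.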

How the data were processed

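Per gene and library, the authors deposited whole-number counts, and in a second table values whose header names no unit. Its values were taken as FPKM from their size, and the deposited FPKM were used for levels per length. Per the labels' protocols, Trizol-extracted RNA went into TruSeq libraries. The submitters' processing notes name GRCh38 and, with no roles, edgeR, StringTie, HISAT2, FastQC, Trimmomatic and CASAVA 1.8. Which annotation was counted, and whether by strand, is not given in the sources used.

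Counts were joined to symbols by gene ID. Genes were kept by filterByExpr (minimum count 10, minimum total 15), scaled by TMM and fitted with edgeR 4.0.16 (R 4.3.3) by estimateDisp, glmQLFit with legacy = FALSE and glmQLFTest, with group as the term and all 6 libraries. SEs and 95% intervals come from the test statistic and its degrees of freedom. P-values are adjusted over all 19034 genes tested. Intervals cover the spread between these libraries. The fit was tested on simulated counts. The variance between libraries of the same group was 9.86 to 28.1 times that of counting, taking the whole numbers as read counts. No library is therefore a mere copy of another. This cannot tell separate cultures from repeat libraries of a single culture.

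The 10 genes and all lists were chosen with earlier results of these data known. Besides the 10 genes, IRF9 and the genes nearest to LOX and P4HA1, the text names the 3 called genes with the smallest p on each side of each list. Exceptions are stated where they occur, and single genes at 0 are named in full. Alternatives used DESeq2 1.42.0, limma 3.58.1 (voom, and trend on FPKM with a pseudocount of 1 or 0.1), other scalings, filters and thresholds, the replicate number as a block, single libraries left out, and members summed with overlapping genes. The earlier and the robust edgeR dispersion settings were added after the data were seen. Exon overlaps come from GENCODE release 29 (GRCh38), and promoter windows from RefSeq.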

Additional observations from a re-analysis of the deposited data

How the results depend on the processing

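Over 22 alternatives, the log2 fold changes of LOX, PLOD2, LOXL2, P4HA1, PLOD1 and P4HA2 stayed negative, within -1.22 to -0.86, -1.13 to -1.03, -0.83 to -0.65, -0.79 to -0.69, -0.56 to -0.46 and -0.36 to -0.19, and were called in each except by the 2-fold threshold, which LOX and PLOD2 alone of these passed. Of 220 values for the 10 genes, 206 were as in the main analysis, 13 were no longer called, 1 became called (PLOD3, summed with ZNHIT1) and 0 reversed. Of the 13, 8 were LOXL3, 1 was LOXL1 and 4 came from the 2-fold threshold. The summed value of LOXL3, counted among the 206, consists mostly of HTRA2 counts. For the 38 other named genes, 65 of 797 values were no longer called and 732 were as in the main analysis, with 0 reversed. The number of enzymes called was 7 to 8 with single libraries left out, and the number of all genes called was 5784 to 6912, beside 7121 in the main analysis.

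The stricter thresholds gave fewer calls by construction. With a 2-fold minimum, 1090 genes and 4 of the enzymes were called, with 0 collagen-modifying and folding genes, 1 of export and cleavage, 3 collagen and elastic fibre genes, 0 of copper and ascorbate supply, 1 other oxygenase, 6 hypoxia-induced genes and 1 regulator. By edgeR's unadjusted p under 0.05, 14 folding and 4 copper genes passed, 1 and 0 of them at least 2-fold, and DESeq2 called 1 and 0 at least 2-fold. With glmTreat against a log2 fold change of 0.25, 2918 genes were called, with 4 folding genes, 4 of export and cleavage, 0 copper genes (3 at an unadjusted p under 0.05, and 4 by DESeq2 without that minimum), 6 other oxygenases and 6 regulators. All other list counts stayed within 1.5 times under the alternatives run.

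The replicate numbers are not stated to mark a shared batch. Deviations of same-numbered libraries from their group means correlated at 0.0073, 0.0020 and -0.0169, and not every library correlated best with its own number. With the number as a block, 8 enzymes and 7458 genes were called. No call of the 10 enzymes changed under it. Depth limits LOXL1 and LOXL3, which had 30 to 174 counts per library.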
